A study of Rattus norvegicus with 5 samples.

Results

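Nuclear receptors were described in cultured granule cells of the rat cerebellum, which are small glutamatergic neurons, as a list of 36 genes. Of these, 34 had at least 1 probe set with a single gene symbol on the Affymetrix array, out of 14217 such genes, and 27 were measured on the 2-colour arrays, out of 9653. Nr2e1 and Nr6a1 had no such probe set. By what they bind, the 34 fell into 5 steroid receptors, 2 thyroid hormone receptors, 6 retinoid receptors, 6 sensors of lipids and vitamin D and 15 orphan receptors.

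Cells came from the cerebellum of Wistar rats 8 days after birth and were kept in medium with 10% serum and 25 mM KCl. They were cultured for 5 days with 10 µM ICRF-193 (D5+), for 5 days without it (D5) or for 1 day (D1). ICRF-193 inhibits type II DNA topoisomerases, and the study used it to act on topoisomerase IIβ. According to the study, the drug also causes degradation of this enzyme, which it showed by immunoblotting. Cytosine arabinoside at 10 µM, which kills dividing cells, was given to D5+, D5 and D1 alike from the end of the first night, so that D1 cells had met it for the shortest time. There was 1 Affymetrix array for each of D5+, D5 and D1, 1 array of D5 (Cy5) against D5+ (Cy3) and 1 array of D5 (Cy5) against D1 (Cy3). No condition had a replicate, so no difference has an error from replicates or a test, and the precision is limited by how few arrays there were.

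Nuclear receptors are transcription factors that carry a zinc finger domain for DNA and, in most cases, a pocket for a small lipid-soluble ligand. Steroid receptors wait in the cell for their hormone, whereas thyroid hormone and retinoic acid receptors sit on DNA as partners of the retinoid X receptors and exchange corepressors for coactivators when the ligand arrives. Orphan receptors are those with no established natural ligand when they were found, and many of them follow neuronal activity, the circadian clock or the course of development. In the cerebellum, thyroid hormone sets the pace of granule cell development, and loss of Rora in the staggerer mouse stops Purkinje cells from maturing.

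Promoters are shown for Nr2f1, the receptor with the largest decrease under ICRF-193 among those with signals well measured on all 3 arrays, and for Nr1d1 and Nr1d2, the paralogous REV-ERB genes, whose D5+ and D5 signals were nearly equal. Each runs from 250 bases before to 50 bases after the RefSeq start on build GRCr8, written 5′ to 3′ along the gene. Capitals mark the receptor half-site AGGTCA and the GC box GGGCGG, on either strand (CCGCCC is the GC box on the other strand), and adjoining GC boxes of Nr2f1 share letters.
Nr2f1 (chr2:9785875-9786174, minus strand): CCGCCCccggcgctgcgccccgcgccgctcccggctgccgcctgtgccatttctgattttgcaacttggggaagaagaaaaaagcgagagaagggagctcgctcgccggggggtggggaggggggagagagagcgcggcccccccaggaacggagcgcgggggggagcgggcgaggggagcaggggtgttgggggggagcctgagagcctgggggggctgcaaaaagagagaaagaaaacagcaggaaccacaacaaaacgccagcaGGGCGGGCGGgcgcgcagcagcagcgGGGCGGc
Nr1d1 (chr10:84231763-84232062, minus strand): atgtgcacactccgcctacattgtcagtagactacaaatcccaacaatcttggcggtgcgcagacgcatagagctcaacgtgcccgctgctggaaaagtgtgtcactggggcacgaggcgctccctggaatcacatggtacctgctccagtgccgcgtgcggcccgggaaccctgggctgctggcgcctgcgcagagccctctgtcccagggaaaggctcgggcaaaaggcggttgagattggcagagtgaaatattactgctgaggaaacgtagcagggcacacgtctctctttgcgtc
Nr1d2 (chr15:9954784-9955083, plus strand): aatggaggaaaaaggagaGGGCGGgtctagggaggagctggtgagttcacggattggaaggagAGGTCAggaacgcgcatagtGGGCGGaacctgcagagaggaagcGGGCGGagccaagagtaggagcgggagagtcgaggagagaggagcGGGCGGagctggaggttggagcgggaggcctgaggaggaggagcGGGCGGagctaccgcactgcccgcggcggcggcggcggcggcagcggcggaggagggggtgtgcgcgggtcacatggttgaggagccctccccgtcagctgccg
The Nr2f1 window held 70.3% G and C with 27 CpG dinucleotides and 4 GC boxes. That of Nr1d1 held 59% with 19 CpG and neither motif, and that of Nr1d2 held 68.7% with 28 CpG, 5 GC boxes and 1 half-site. The RefSeq table held a promoter for 30 of the 34 receptors, all but Nr3c2, Ppard, Nr2f2 and Nr4a3. Over these 30 the median G and C content was 64.5%, against 52.3% over all 27455 promoters, and the median number of CpG was 20 against 7. The 17 with an expressed gene had a median of 66.3% and 28 CpG, and the 13 others 60.7% and 15. The GC box stood in 17 of 30 receptor promoters (56.7%) and in 34.9% of all promoters. The half-site stood in 3 of 30, those of Nr1d2, Nr5a2 and Rarg, and in 15.7% of all promoters. The motif TAGGTCA, which contains the half-site and is the core to which REV-ERB and ROR proteins bind, was in no receptor promoter and in 2.60% of all promoters. These matches describe letters in a window and not binding.

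The Affymetrix signal is a linear intensity with no unit. A floor was set at the 40th percentile of each array, which was 16.3 on D5+, 16.7 on D5 and 19.2 on D1, and a gene was called expressed if its brightest probe set was above the floor on D5+ or D5 and on D5 or D1. Changes are log2 ratios of signals, D5+/D5 and D5/D1, and a change was called past 2-fold. The median over all 10328 expressed genes was not 0 but −0.13 for D5+/D5 and −0.18 for D5/D1. As a yardstick without replicates, the SD of a single probe set was taken from genes with exactly 2 expressed sets in the same signal range. It was 0.45 in log2 D5+/D5 and 0.51 in log2 D5/D1 at signals of 20 to 50. At signals of 100 to 200 it was 0.22 and 0.24, and at signals of 200 to 1000 it was 0.15 and 0.21. The difference between 2 sets of a gene spreads more widely than this. The yardstick leaves out genes whose sets fall in different ranges and whatever varies between cultures. All 11 granule neuron markers on the array were expressed, Gabra6, a GABA-A receptor subunit of mature granule cells, with signals of 686.4 on D5+, 962.7 on D5 and 84.5 on D1. The 11 had no common direction. In D5/D1, 3 were past 2-fold higher, Gabra6 among them, and 3 were lower, with a median log2 ratio of −0.11. In D5+/D5, 0 were past 2-fold, 7 were above 0 and 4 below, Gabra6 among the 4, with a median of 0.32. Markers of other cells were expressed as well, among them 9 of 11 for astrocytes, 8 of 8 for microglia and 7 of 9 for the oligodendrocyte lineage. In such bulk RNA, fewer cells of a type and less RNA per cell cannot be told apart.

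Of the 34 receptors, 21 were expressed (61.8%), against 72.6% of all genes. The share differed between classes. Of the orphan receptors 13 of 15 were expressed, of the thyroid hormone receptors 2 of 2, and of the steroid, retinoid and lipid or vitamin D classes 2 of 5, 2 of 6 and 2 of 6. Outside the orphans this made 8 of 19 (42.1%). Of the 21, 18 were above the floor on all 3 arrays. Nr1d1 was above it on D5+ and D5, and Nr3c2 and Esrrb passed through D5 alone.

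**Figure D1:**
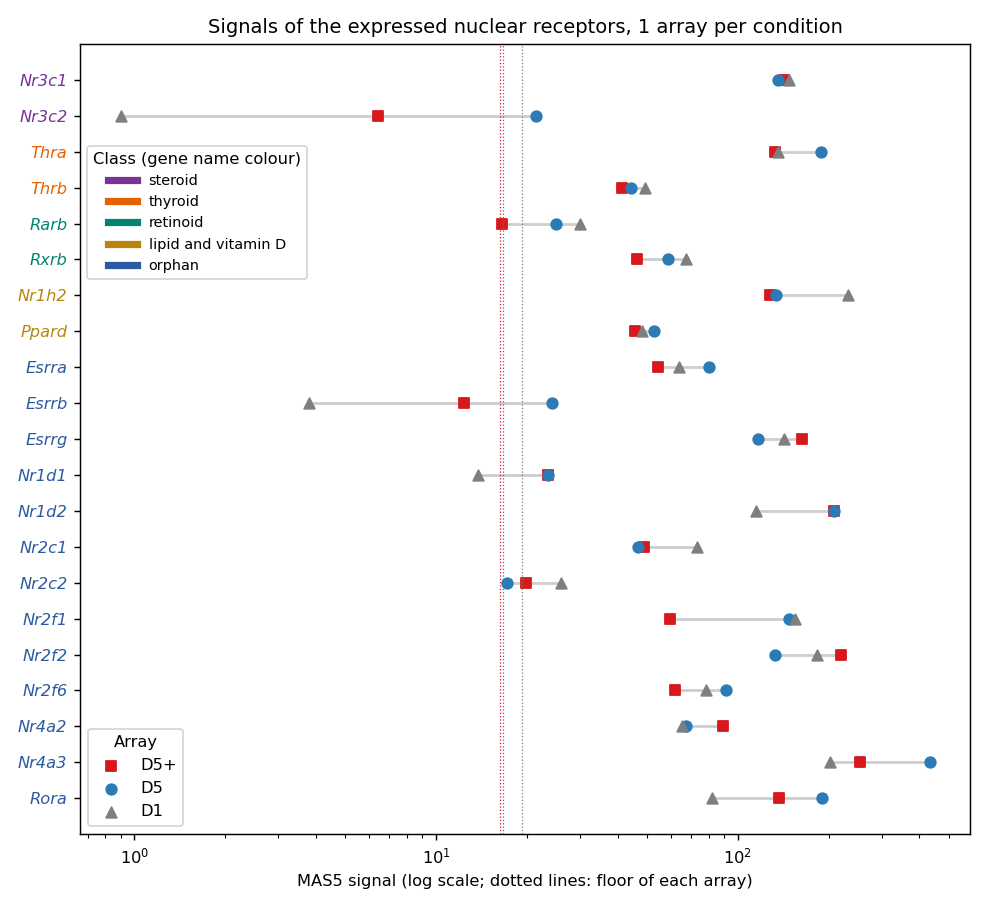
Affymetrix signal (log scale) of each of the 21 expressed receptors, with a square for D5+, a circle for D5 and a triangle for D1, gene names coloured by class and dotted lines at the floor of each array. Nr2f1 has its D5+ square at 59.6, far to the left of D5 and D1, while Nr3c2 and Esrrb have only the D5 circle to the right of the floors.

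In D5/D1, 4 receptors were past 2-fold higher and 0 were past 2-fold lower. Over all expressed genes 9.57% were higher and 9.95% lower, which 4 of 21 (19.0%) and 0 of 21 can be read against. The 4 were Nr4a3, Rora, Nr3c2 and Esrrb, and the last pair had D1 signals under the floor. A gene that passes only through its D5 signal has to be higher there than on D5+, and the filter leans the same way against D1. Nr3c2 and Esrrb therefore carry no fold. With genes above the floor on both arrays alone, 2 of 18 receptors were past 2-fold higher, against 6.52% of all such genes, and 0 were lower, against 9.49%. In D5+/D5, 0 receptors were past 2-fold higher, against 2.12% of all expressed genes. Past 2-fold lower were 2, Nr2f1 and Nr3c2, against 6.03%. Above the floor on both arrays, 1 of 19 was lower, against 3.8% of such genes, and 0 were higher, against 1.45%. Each count lay at most a few genes from its background, and what follows is about single receptors.

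Over the 18 receptors above the floor on all 3 arrays, the median log2 ratio was −0.16 for D5+/D5 and −0.09 for D5/D1, against −0.12 and −0.21 over all genes above it. The 11 orphans among them had medians of 0.01 and 0.05. The 7 receptors of the other classes had medians of −0.21 and −0.16. For D5+/D5, 7 of the 8 expressed non-orphans were below 0 (87.5%) and 6 of the 13 orphans (46.2%), where 64.3% of all expressed genes were. Nr3c2 among these non-orphans and Esrrb among these orphans passed the floor through D5 alone. Both had to be below 0, so they add nothing to this contrast. On the 2-colour arrays the classes were not set apart in this way: 3 of the 6 expressed non-orphans measured there and 3 of the 8 orphans were lower with ICRF-193. With 1 array per condition the classes were not tested against each other.

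**Figure D2:**
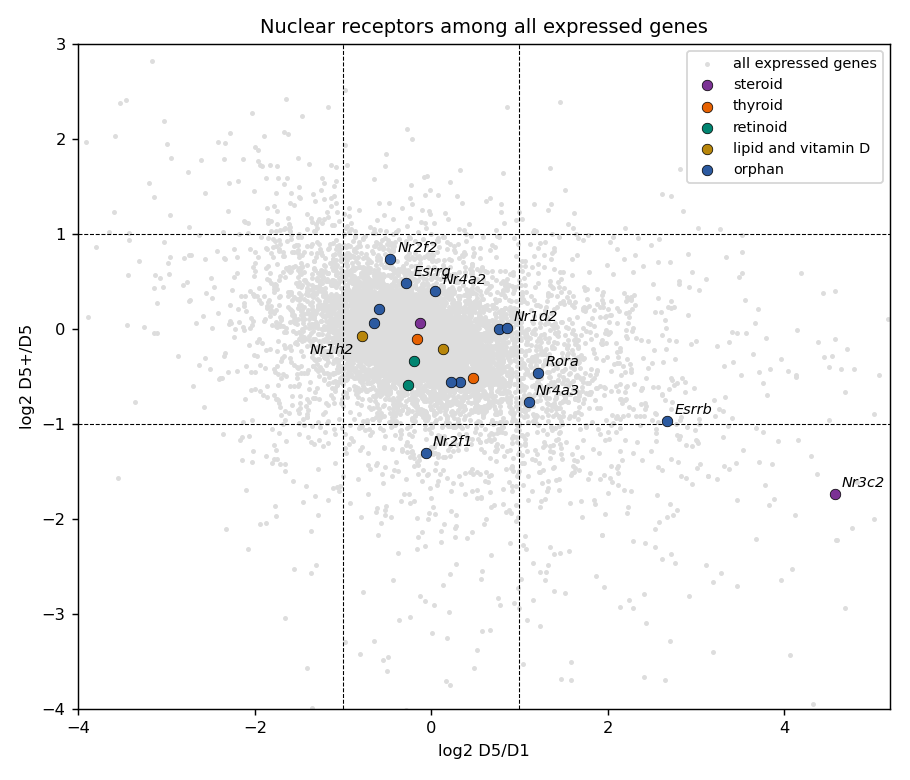
Log2 D5+/D5 (vertical axis) against log2 D5/D1 (horizontal axis) for the 21 expressed receptors in the colours of their class and for all expressed genes in grey, with dashed lines at 2-fold and 42 genes outside the axes. Most receptors lie inside both pairs of lines, and Nr2f1 lies below the lower line with a D5/D1 near 0. Rora, Nr4a3 and Esrrb lie past 2-fold in D5/D1 only, Esrrb with D5 alone above the floor and so with no fold to be read.

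Among the steroid receptors, Nr3c1, the glucocorticoid receptor, had signals of 141.8 on D5+, 135.5 on D5 and 147.5 on D1. All 3 arrays were close, with log2 ratios of 0.07 for D5+/D5 and −0.12 for D5/D1. A second, dimmer probe set of Nr3c1 gave 24.6 on D5+, 11.3 on D5 and 37.3 on D1, with D5 under the floor. Nr3c2, the mineralocorticoid receptor, which also binds glucocorticoids, had 6.4 on D5+, 21.4 on D5 and 0.9 on D1. Only D5 was above the floor, and its 2-colour log ratios were −0.04 for D5/D5+ and −0.04 for D5/D1, near 0. The estrogen receptors Esr1 and Esr2 and the progesterone receptor Pgr were not expressed, with signals between 0.5 and 9.9.

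Thra, the main thyroid hormone receptor of brain, had 132.4 on D5+, 189.3 on D5 and 136.1 on D1. D5 was highest, at log2 ratios of −0.52 for D5+/D5 and 0.48 for D5/D1. A second expressed probe set of Thra had 57.2 on D5+, 57.5 on D5 and 88.5 on D1, so that D1 was highest there and both sets gave different patterns. Such a set can cover another transcript form. Thrb, the other thyroid hormone receptor, had 41.2 on D5+, 44.2 on D5 and 49.4 on D1, which lie within the yardstick of dim probe sets.

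Rxrb, a retinoid X receptor and so a partner of many other receptors, had 46.5 on D5+, 58.9 on D5 and 67.5 on D1. Rarb, a retinoic acid receptor that is itself induced by retinoic acid, had 16.5 on D5+, 24.9 on D5 and 29.9 on D1. Both were lowest on D5+ and highest on D1, with log2 D5+/D5 of −0.34 for Rxrb and −0.59 for Rarb, and Rarb lay close to the floor on D5+. On the 2-colour arrays the 2 probes of Rarb had opposite signs, at −0.11 and 0.12 for D5/D5+ and −0.10 and 0.05 for D5/D1. The decrease of Rarb with ICRF-193 was thus not seen there. Rara, Rarg, Rxra and Rxrg were not expressed, with signals between 2.1 and 15.3.

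Nr1h2, the liver X receptor β, a sensor of oxysterols, had 127.6 on D5+, 134.0 on D5 and 231.0 on D1. D1 stood apart, and its log2 D5/D1 of −0.79 was the lowest of the expressed receptors, yet within 2-fold. Its 2-colour log ratio was −0.27 for D5/D1, the same direction. Ppard, a receptor for fatty acids, had 45.7 on D5+, 52.9 on D5 and 48.1 on D1, with little between them. Vdr, Ppara, Pparg and Nr1h3 were not expressed, and of these Vdr came nearest, with 8.0 on D5+, 4.1 on D5 and 18.9 on D1, just under the D1 floor.

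Nr2f1 and Nr2f2 encode COUP-TFI and COUP-TFII, related orphan receptors that guide the specification of neurons. Nr2f1 had signals of 59.6 on D5+, 147.8 on D5 and 154.6 on D1. It was 2.48-fold lower in D5+ than in D5, a log2 ratio of −1.31 and the 374th lowest of 10328, with D5 and D1 nearly equal at −0.06. On the 2-colour array of D5 against D5+, where a ratio above 0 means lower with ICRF-193, its 2 probes gave 1.11 and 1.02, and their median of 1.07 ranked 71 of 9623 genes. The D5/D1 log ratio there was −0.13. Both kinds of array thus had Nr2f1 lower with ICRF-193 and little changed between D5 and D1.

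Nr2f2 went the other way, with 220.5 on D5+, 132.7 on D5 and 183.2 on D1. D5 was lowest, and the log2 ratios of 0.73 for D5+/D5, rank 463 of 10328, and −0.47 for D5/D1 were within 2-fold. Its 2-colour log ratio for D5/D5+ was −0.71, higher with ICRF-193 and the 213th lowest of 9623. A dimmer probe set of Nr2f2 gave 32.5 on D5+, 28.7 on D5 and 34.1 on D1, the same order of D5+ over D5 with a log2 ratio of 0.18. Nr2f6, the EAR2 member of this family, had 61.8 on D5+, 91.3 on D5 and 78.4 on D1, and a second expressed set of it had 23.2 on D5+, 17.5 on D5 and 26.5 on D1. These sets disagree in direction for D5+/D5, and the 2-colour D5/D5+ of −0.17 followed the second.

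Among markers of other cell types, several lists differed between D5+ and D5 as well. Of 11 astrocyte and Bergmann glia markers on the array, 9 were expressed and 6 of them were past 2-fold lower in D5+ than in D5. Their summed signal was 2926 on D5+, 6175 on D5 and 4333 on D1, and Gfap, the astrocyte filament protein, had 167.0 on D5+, 1511.9 on D5 and 1016.1 on D1. Not every astrocyte marker was lower: S100b had 512.9 on D5+, 339.3 on D5 and 120.8 on D1, with a 2-colour D5/D5+ of −0.72, and Gja1 had 1062.8 on D5+, 921.2 on D5 and 469.2 on D1. Aldh1l1 had 26.3 on D5+, 89.6 on D5 and 60.6 on D1, but a 2-colour D5/D5+ of −0.20, the opposite direction. Slc1a2, another astrocyte marker, was under the floor on every array. Of 10 markers of endothelial, mural and meningeal cells, 7 were expressed and 3 were past 2-fold higher in D5+ than in D5. The sum of the 7 was 4062 on D5+, 1670 on D5 and 433 on D1, while the endothelial marker Pecam1 had 1.6 on D5+, 1.5 on D5 and 6.7 on D1. Eomes, which marks unipolar brush cells, had 83.2 on D5+, 20.4 on D5 and 245.7 on D1, with D5 lowest as for Nr2f2. It was 1 of 11 expressed markers of Purkinje cells, interneurons and unipolar brush cells, which had no common direction. In D5+/D5, 2 of them were past 2-fold higher, Eomes and Gad2, and 1 was lower, Pvalb, above the floor on D5 alone. Of the 11, 8 were above 0 and 3 below, with a median log2 D5+/D5 of 0.14. The oligodendrocyte lineage markers had D5 lowest too: all 7 expressed were above 0 in log2 D5+/D5 and below 0 in log2 D5/D1, with a summed signal of 2688 on D5+, 1746 on D5 and 2617 on D1. The 2-colour arrays were less uniform. Mag, Sox10 and Mog had D5/D1 of 0.17, 0.21 and 0.0033, and Pdgfra and Sox10 had D5/D5+ of 0.05 and 0.02, the opposite directions. The other values of the 7 ran the same way as on the Affymetrix arrays. Of 6 proliferation markers, 4 were past 2-fold lower in D5+ than in D5, and their sum was 942 on D5+, 1232 on D5 and 2832 on D1. The part of these cell types in the ratios of Nr2f1 and Nr2f2 was not tested.

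**Figure D3:**
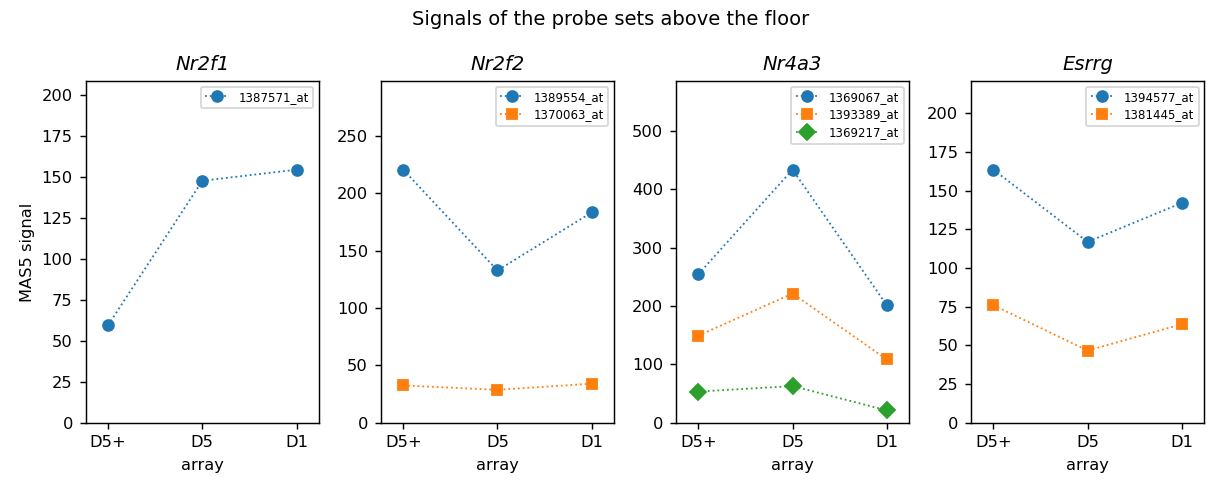
Affymetrix signal (linear axis from 0) of every expressed probe set of Nr2f1, Nr2f2, Nr4a3 and Esrrg on the D5+, D5 and D1 arrays, joined by dotted lines for each probe set. Nr2f1 is low on D5+ alone, all 3 sets of Nr4a3 are highest on D5, and both sets of Nr2f2 and of Esrrg are lowest on D5.

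Nr4a3 and Nr4a2, known as NOR1 and NURR1, belong to the family of orphan receptors that neurons induce as immediate early genes upon depolarization. Nr4a3 had 254.1 on D5+, 433.3 on D5 and 201.3 on D1. D5 was highest, 2.15-fold over D1, with log2 ratios of −0.77 for D5+/D5 and 1.11 for D5/D1. Its other probe sets gave 149.1 and 53.4 on D5+, 221.2 and 62.9 on D5, and 108.6 and 21.3 on D1, so D5 was highest on each. The log2 D5/D1 of these was 1.03 and 1.56, and their log2 D5+/D5 was −0.57 and −0.24. On the 2-colour arrays Nr4a3 had 0.59 for D5/D5+, rank 263 of 9623, and 1.33 for D5/D1, rank 163 of 9635. Every probe set and both kinds of array gave the same directions, with a smaller decrease under ICRF-193 on the dimmest set.

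Nr4a2 had 89.0 on D5+, 67.5 on D5 and 65.4 on D1, so that here D5+ was highest. The log2 ratios were 0.40 for D5+/D5 and 0.05 for D5/D1 (−0.01 with the floor value added to every signal), and a second set of 48.2 on D5+, 31.2 on D5 and 24.5 on D1 gave the same order. The 2-colour log ratios of Nr4a2 were −0.10 for D5/D5+ and 0.20 for D5/D1. These 2 relatives therefore lay on opposite sides of 0 under ICRF-193 on both kinds of array, with all values of Nr4a2 within 2-fold.

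Rora, Nr1d1 and Nr1d2 act on the same response elements, where RORα activates and the REV-ERB proteins encoded by Nr1d1 and Nr1d2 repress, among other targets, clock genes. Rora had 137.0 on D5+, 189.7 on D5 and 81.8 on D1. D5 was 2.32-fold over D1, a log2 ratio of 1.21 that ranked 781 of 10328, and D5+ lay between them at −0.47 for D5+/D5. Markers of Purkinje cells, in which Rora is also active, had no common direction between D5 and D1. Calb1 had 111.0 on D5+, 205.2 on D5 and 119.1 on D1, highest on D5 like Rora. Car8 had 24.7 on D5+, 24.0 on D5 and 58.7 on D1, but a 2-colour D5/D1 of 1.30, the opposite direction. Of the whole list of 11 expressed markers of Purkinje cells, interneurons and unipolar brush cells, 5 were past 2-fold lower in D5/D1 and 1 was higher, Pvalb, with D1 under the floor. The summed signal of the list was 1025 on D5+, 982 on D5 and 1146 on D1, and the part of these cells in the Rora ratio was not tested. Rora was measured by 1 expressed probe set and was not on the 2-colour arrays.

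Nr1d2 had 208.9 on D5+, 207.7 on D5 and 114.9 on D1. Both D5+ and D5 exceeded D1, with log2 ratios of 0.01 for D5+/D5 and 0.85 for D5/D1 (1.02 to 1.04, past 2-fold, once the arrays were scaled alike), and 2 other sets gave 0.09 and −0.09 for D5+/D5 and 0.87 and 0.39 for D5/D1. Nr1d1 had 23.5 on D5+, 23.5 on D5 and 13.8 on D1, with D1 under its floor. Thra and Nr1d1 overlap on opposite strands, and which transcript each probe set reads was not checked here.

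Estrogen-related receptors bind no estrogen and, together with PGC-1 coactivators, drive genes of mitochondria. Esrrg had 163.6 on D5+, 116.9 on D5 and 142.1 on D1, and a second set had 76.0 on D5+, 46.7 on D5 and 63.7 on D1. D5+ was highest and D5 lowest on both, with log2 D5+/D5 of 0.48 and 0.70, and the 2-colour D5/D5+ of −0.32 ran the same way. Esrra had 54.4 on D5+, 80.2 on D5 and 64.0 on D1, so its order was the reverse, at −0.56 for D5+/D5. Esrrb had 12.4 on D5+, 24.3 on D5 and 3.8 on D1, with only D5 above the floor. Nr2c1 and Nr2c2, the testicular receptors TR2 and TR4, had 49.0 and 19.9 on D5+, 46.8 and 17.2 on D5, and 73.5 and 25.9 on D1, the highest for both. Rorb and Nr5a2 were not expressed, with signals between 0.4 and 16.2.

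The 2-colour arrays measured 14 of the 21 expressed receptors. Their log base is not stated, so sizes were not set against those of the other arrays, and 2-fold was read in log2 as well as in natural logs. Over all 27 receptors measured there, 13 had a D5/D5+ above 0 (51.1% of all genes did) and 12 a D5/D1 above 0 (51.7%). Read as log2, 1 receptor was past 2-fold lower with ICRF-193, Nr2f1, where 0.925% of all genes were, and 0 were higher, where 1.04% were. Read as natural logs, these counts were 1 (1.93% of all genes) and 1 (2.34%), the second being Nr2f2. For D5/D1, 1 receptor was past 2-fold higher, Nr4a3, by either reading (3.24% of all genes in log2 and 6.26% in natural logs). None of the 27 was past 2-fold lower in D5/D1 (0.965% and 2.48%). For ICRF-193 the direction was the same on both kinds of array for 8 of 14 receptors (57.1%), against 66.4% of 6782 genes measured on both. For D5/D1 it was the same for 10 of 14 (71.4%), against 71.0%. The ICRF-193 ratios of Thra, Nr2f6, Nr2c2, Nr1h2, Nr3c1 and Nr3c2 had opposite directions, all within 2-fold on the Affymetrix arrays other than Nr3c2. Of these, Thra had a 2-colour D5/D5+ of −0.39 and Nr1h2 of −0.48, and the Affymetrix direction of Nr3c2 was fixed by the floor. Some of the 8 with the same direction were near 0. Rarb had a 2-colour D5/D5+ of 0.0023, the median of probes of opposite sign, and Nr2c1 had an Affymetrix log2 D5+/D5 of 0.07. After Nr3c2, the receptors of the 14 with the largest Affymetrix D5+/D5 in size were Nr2f1, Nr4a3 and Nr2f2, and each had the same direction on both.

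**Figure D4:**
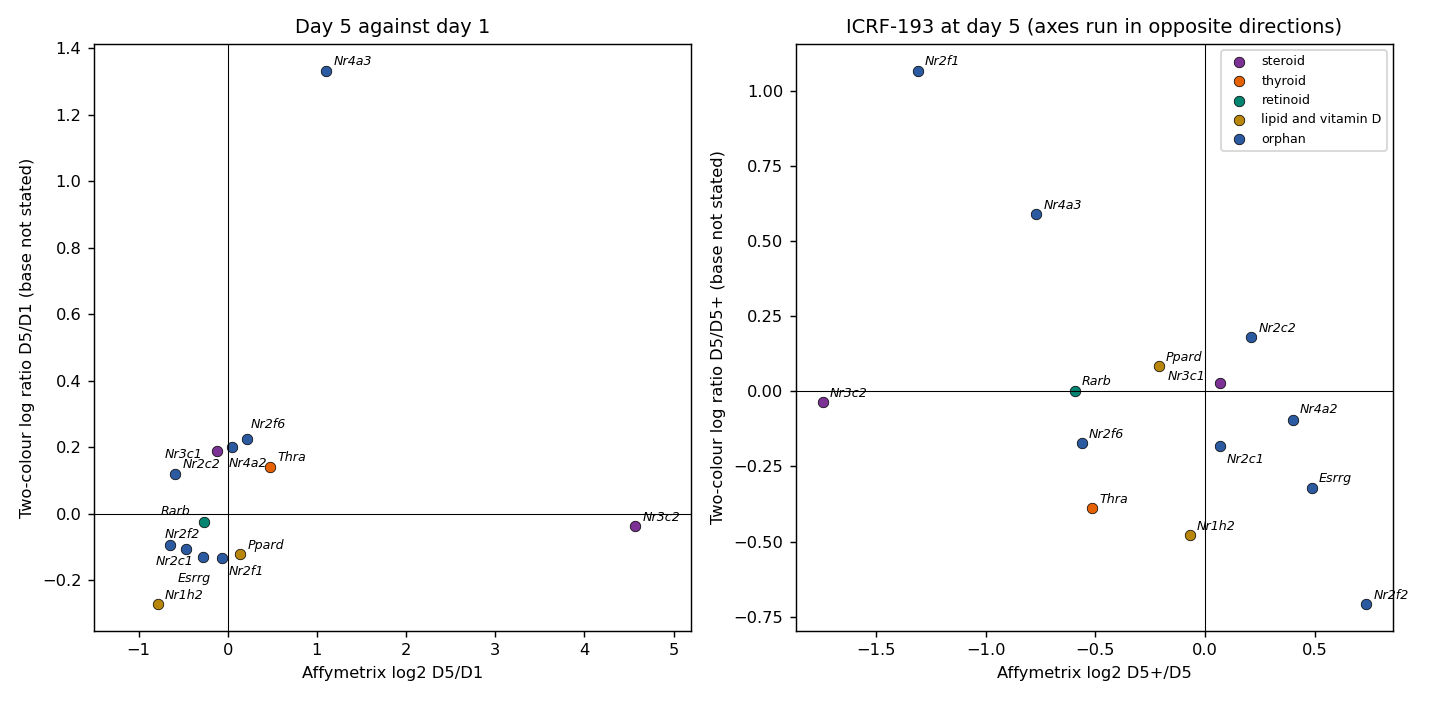
Log ratios on the 2-colour arrays (vertical axes, base not stated) against the Affymetrix log2 ratios (horizontal axes) for the 14 expressed receptors measured on both, with D5 against D1 on the left and the effect of ICRF-193 on the right, where the axes run in opposite directions (D5/D5+ against D5+/D5). Nr2f1 and Nr4a3 at the upper left and Nr2f2 at the lower right of the right panel have the same direction on both platforms, and Nr3c2 lies far right in the left panel with a 2-colour value near 0.

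Some receptor genes lie beside the genes of the enzymes that ICRF-193 inhibits. In the RefSeq order of protein-coding genes, Rarb lies on chromosome 15 next to Top2b, which encodes topoisomerase IIβ, Thrb follows on the other side of Rarb, and Nr1d2 comes next with 1 gene between. On chromosome 10, 1 gene lies between Rara and Top2a, which encodes topoisomerase IIα of dividing cells, and 7 and 8 genes lie between Top2a and Nr1d1 and Thra. Top2b had 933.8 on D5+, 900.5 on D5 and 1388.2 on D1, and Top2a had 31.4 on D5+, 62.1 on D5 and 271.8 on D1. These signals are of RNA and do not give the amount of either enzyme. The neighbours Rarb, Thrb and Nr1d2 had log2 D5+/D5 of −0.59, −0.10 and 0.01, with no common size.

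Coregulators carry the effect of the receptors to chromatin. Of 18 on the array 17 were expressed, with 0 past 2-fold higher and 2 lower in D5+/D5, and 3 higher and 0 lower in D5/D1. Over all expressed genes, for these and the lists that follow, 2.12% were higher and 6.03% lower in D5+/D5, and 9.57% and 9.95% in D5/D1. Ppargc1a, which encodes PGC-1α, a coactivator of estrogen-related receptors and PPARs, had 44.0 on D5+, 317.7 on D5 and 67.2 on D1. D5 stood alone, with log2 ratios of −2.85 for D5+/D5 and 2.24 for D5/D1, and the 2-colour log ratios of 1.52 for D5/D5+ and 1.72 for D5/D1 ran the same way. Its paralogue Ppargc1b had 137.9 on D5+, 116.7 on D5 and 33.7 on D1, where D5+ and D5 were alike. For Ppargc1b the 2-colour D5/D1 was near 0, at −0.0018. Nrip1, a corepressor and the other coregulator higher in D5/D1, had 207.7 on D5+, 208.6 on D5 and 97.4 on D1, with a 2-colour D5/D1 of 0.05. Ncoa3, a p160 coactivator, had 9.3 on D5+, 26.0 on D5 and 23.7 on D1, with D5+ under the floor. The medians of the 17 were −0.15 for D5+/D5 and −0.19 for D5/D1, near those of all genes.

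Genes of retinoid supply and response had 8 of 13 expressed, with 3 past 2-fold lower in D5+/D5 and 4 higher and 1 lower in D5/D1. Of these, Aldh1a1 and Aldh1a2 were above the floor on D5 alone, a way of passing that favours a high D5. Without them, 1 was lower in D5+/D5 and 2 were higher in D5/D1. Cyp26b1, which degrades retinoic acid and is induced by it, had 261.2 on D5+, 301.5 on D5 and 47.7 on D1, with a log2 D5/D1 of 2.66 and a 2-colour D5/D1 of 1.40. Dhrs3, which returns retinal to retinol, had 38.8 on D5+, 117.9 on D5 and 47.3 on D1, with a log2 D5+/D5 of −1.60. Aldh1a1, which makes retinoic acid, had 8.6 on D5+, 21.7 on D5 and 1.1 on D1, with only D5 above the floor. Over the 6 genes above the floor on all 3 arrays the medians were −0.14 for D5+/D5 and 0.63 for D5/D1, against −0.12 and −0.21 over all such genes.

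Among genes of thyroid hormone supply and response, 8 of 13 were expressed, with 0 past 2-fold in D5+/D5 and 2 higher and 1 lower in D5/D1. Klf9, a zinc finger gene induced by thyroid hormone and glucocorticoids, had 704.4 on D5+, 702.4 on D5 and 310.9 on D1, with a log2 D5/D1 of 1.18 and a 2-colour D5/D1 of 1.19, the same direction. Crym, which binds thyroid hormone in the cytosol, had 77.0 on D5+, 80.4 on D5 and 30.0 on D1, yet its 2-colour D5/D1 was near 0, at −0.0060. Pcp2, a Purkinje cell gene, had 17.2 on D5+, 20.5 on D5 and 103.6 on D1, with a 2-colour D5/D1 of −0.10. Pcp2 was also 1 of the Purkinje cell markers lower at D5, and the part of these cells was not tested.

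Of the genes of steroid supply, receptor chaperones and steroid response, 11 of 16 were expressed. In D5+/D5 2 were past 2-fold lower, and in D5/D1 1 was higher and 1 lower. Mt2A, a metallothionein, had 115.5 on D5+, 824.9 on D5 and 487.5 on D1, and Hsd11b1, which regenerates active glucocorticoid, had 67.9 on D5+, 198.0 on D5 and 126.2 on D1. Both were lowest on D5+, as 6 of the 9 astrocyte markers were past 2-fold lower there than on D5, and the part of astrocytes was not tested. Fkbp5, an HSP90 cochaperone induced by glucocorticoids, had 52.5 on D5+, 68.2 on D5 and 261.5 on D1, with D1 far above the others.

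Targets of the lipid sensors were all expressed, 11 of 11, with 0 past 2-fold in D5+/D5 and 1 higher and 3 lower in D5/D1. Angptl4, a PPAR target that inhibits lipoprotein lipase, had 44.4 on D5+, 45.6 on D5 and 401.8 on D1, a log2 D5/D1 of −3.14. Cpt1a, which admits fatty acids to mitochondria and is another PPAR target, had 169.4 on D5+, 85.2 on D5 and 257.0 on D1. Its 2-colour D5/D1 of −1.05 had the same direction. Plin2, the other gene past 2-fold lower in D5/D1, had 156.9 on D5+, 137.6 on D5 and 411.3 on D1, but a 2-colour D5/D1 of 0.61, the opposite direction. Mylip, a liver X receptor target that degrades the LDL receptor, ran opposite to Angptl4, with 129.7 on D5+, 207.8 on D5 and 61.6 on D1.

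Clock genes had 11 of 13 expressed, with 2 past 2-fold lower in D5+/D5 and 3 higher and 0 lower in D5/D1. Nfil3, a repressor that itself is under REV-ERB control, had 160.3 on D5+, 381.8 on D5 and 137.5 on D1. Per1, a clock repressor that glucocorticoids also induce and that was listed among steroid targets too, had 51.3 on D5+, 92.1 on D5 and 37.0 on D1. Both were highest on D5, with log2 D5+/D5 of −1.25 for Nfil3 and −0.84 for Per1. Npas2, a partner of the clock activator Arntl, had 12.8 on D5+, 28.6 on D5 and 10.6 on D1. Only D5 was above the floor, a way of passing that favours a high D5. Without Npas2, 1 clock gene was past 2-fold lower in D5+/D5 and 2 were higher in D5/D1. The 2-colour D5/D5+ was 0.19 for Nfil3 and 0.25 for Per1, the same direction. Over the 10 clock genes above the floor on all 3 arrays the medians were −0.12 for D5+/D5 and 0.34 for D5/D1, against −0.12 and −0.21 over all such genes.

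**Figure D5:**
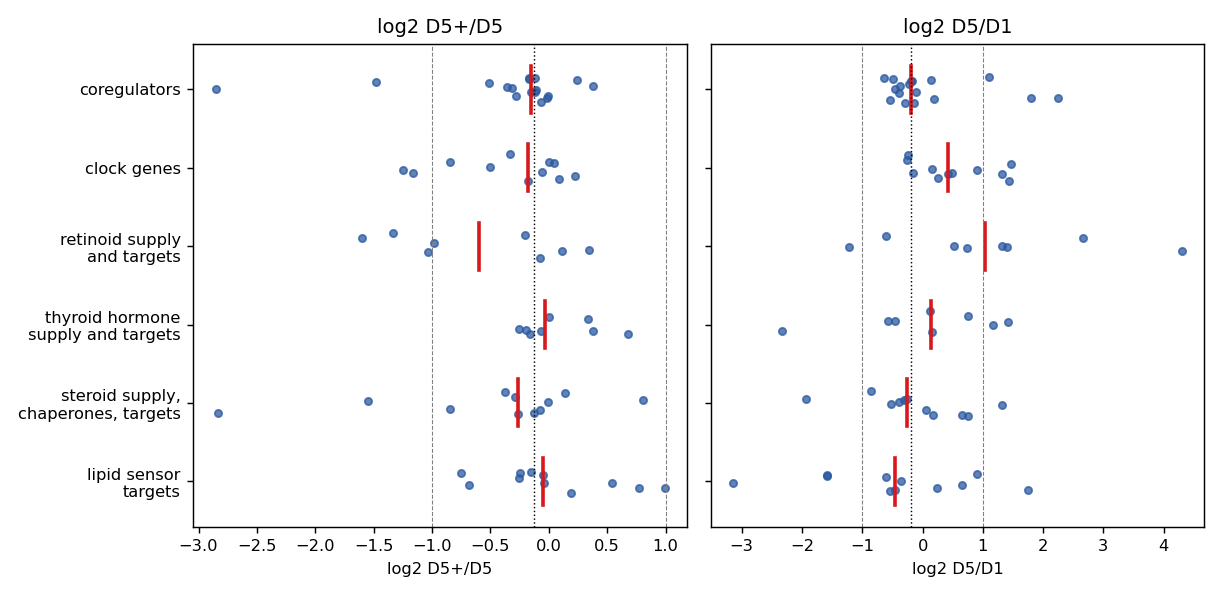
Log2 D5+/D5 (left) and log2 D5/D1 (right) of each expressed gene in the lists of coregulators and of receptor supply and target genes, 1 point for a gene with a small vertical shift for sight, a red bar at the median of each list (which takes in genes above the floor on D5 alone), a dotted line at the median of all expressed genes and dashed lines at 2-fold. Ppargc1a (coregulators) and Mt2A (steroid list) lie at the far left of the left panel, at −2.85 and −2.84.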

How the data were processed

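Total RNA of the cultures was measured on 3 Affymetrix arrays and 2 two-colour arrays. The deposited Affymetrix values are linear signal intensities, which the authors made with GCOS and MAS5 (no version is named). A normalization to the 50th percentile is described in the methods, yet the medians, over 31042 probe sets with controls left out, were 28.0 on D5+, 29.2 on D5 and 32.9 on D1, so values were used as deposited. The deposited 2-colour values are log ratios of Cy5 over Cy3, for which no base or normalization is stated in the sources used here. Their medians over 20500 probes were 0.0015 for D5/D5+ and 0.0057 for D5/D1, with 96 and 62 missing. A dye effect cannot be told apart from the ratio, since no dyes were swapped. Detection calls were not used here.

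Symbols came from the array annotation. Of the Affymetrix probe sets 20826 had 1 symbol, 436 had several and 9780 had none, and of the 2-colour probes 12750 had 1. A gene was represented by its brightest probe set (mean of log2 signals), a signal of 0 was read as 0.1, and 2-colour probes of a gene were taken by their median. Of the receptors, 34 matched the RefSeq table of build GRCr8. Computations used Python 3.11.15, numpy 2.4.6 and pandas 2.3.3, and the counting was tested on simulated data. The receptors, their classes and all gene and marker lists were chosen with earlier results of these data known. Named by rule were receptors past 2-fold, the brightest other receptor of each class and up to 3 genes of each list with the largest change. Other receptors were named to account for the list, after their values were seen. Nrip1, Aldh1a2 and Plin2 were also named outside this rule, to account for the counts past 2-fold. Alternatives covered the floor, scaling, an added offset, the choice of probe set, the threshold and the platform.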

Additional observations from a re-analysis of the deposited data

How the results depend on the processing

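No paired analysis was possible because each condition has 1 array and no comparison rests on a test. Counts of receptors past 2-fold depended on the floor. At the 20th percentile, with 31 receptors expressed, D5+/D5 had 1 higher (4.69% of all genes) and 5 lower (9.71%) and D5/D1 had 3 lower (12.5%). With no floor and 34 receptors, D5+/D5 had 1 higher (8.71%) and 7 lower (10.7%) and D5/D1 had 4 lower (16.6%). The 60th percentile left 15 receptors, with 1 lower in D5+/D5 (4.56%) and 2 higher in D5/D1 (8.92%), and adding the floor value to every signal gave the same counts over 21 receptors (2.96% and 5.45%). A 1.5-fold threshold gave 1 higher (6.37%) and 5 lower (14.5%) in D5+/D5 and 3 lower in D5/D1 (24.3%), and a 3-fold threshold gave 1 lower in D5+/D5 (2.37%) and 2 higher in D5/D1 (4.96%). On the 2-colour arrays read as log2, 1 receptor was lower with ICRF-193 and 1 higher at D5 than at D1. Read as natural logs, 1 was also higher with ICRF-193. All other counts and medians over the receptors, under the alternatives run, stayed within the limits set for them.

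Scaling the arrays, in 3 ways, moved the all-gene medians to between −0.07 and 0.01 for D5+/D5 and to between −0.02 and 0.00 for D5/D1. Among all genes past 2-fold, 49.0% were higher in D5/D1 as deposited and 62.5% to 63.5% after scaling, and 26.0% against 31.9% to 35.2% in D5+/D5. Nr2f1 then had log2 D5+/D5 of −1.25 to −1.20, and −1.12 with the floor value added, so it stayed past 2-fold lower. Nr1d2 passed 2-fold in D5/D1 after each scaling, at 1.02 to 1.04. With the floor value added, Nr3c2 and Esrrb came within 2-fold, and the D5/D1 of Nr4a2 turned to −0.01. The mean over probe sets put Nr2f2 at 0.46 in D5+/D5. Signal limits what can be read: at 20 to 50, a single probe set has an SD of 0.45 in D5+/D5 and 0.51 in D5/D1, and no ratio has a replicate.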

Other observations

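Beyond the 36 listed genes, 8 more nuclear receptors were found on the Affymetrix array, a set put together after the values were seen. Only Nr4a1 of these, the third gene of the NR4A family of activity-induced receptors, was expressed, with signals of 39.7 on D5+, 53.9 on D5 and 33.5 on D1. Its order was that of Nr4a3, with D5 highest, at log2 ratios of −0.44 for D5+/D5 and 0.69 for D5/D1, both within 2-fold. The 2-colour log ratios of 0.23 for D5/D5+ and 0.54 for D5/D1 had the same directions. Nr0b1, Nr0b2, Nr1h4, Nr1i2, Nr1i3, Hnf4a and Nr5a1, which are known for roles in the adrenal gland, gonads and liver, were not expressed by the same floor. Nr1i2 alone among them had a signal above a floor, at 17.6 on D5+, with 10.9 on D5 and 2.2 on D1.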
